A study of Homo sapiens with 12 samples.

Results

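Transcript levels of irradiated HaCaT cells were compared between cultures taken after 14 and after 3 irradiations with blue light. HaCaT is an immortalized line of human skin keratinocytes that arose spontaneously, wild-type in the labels. The irradiated cultures, blue_14 and blue_3, had 2 libraries each, lettered a and b, so the comparison used 4 of the series' 12 libraries and covered all genes of the count table. Its members were chosen by the sample titles, not by measured values. The matched controls, dark_14 and dark_3, were HaCaT cells of the same irradiation numbers kept without the light, also with 2 libraries each. In the irradiated groups the cells received 50 J per cm2 of light at 408 nm and 4.6 mW per cm2 in phosphate-buffered saline, 3 times per week, a dose that the submitters set to kill 50% of the cells. Cells were passaged between sessions, so 14 against 3 irradiations also compared later with earlier cultures, in both arms. The irradiated comparison taken by itself therefore cannot tell further irradiations apart from time in culture. The irradiated and the dark comparison shared no library.

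Blue light near 408 nm is absorbed by porphyrins and flavins, which then form reactive oxygen species. Keratinocytes respond to oxidants and to damage with stress kinases, NF-kappaB and cell cycle checkpoints, and they take part in skin immunity by secreting alarmins, complement proteins, chemokines and antimicrobial peptides. Interferons act on keratinocytes through JAK and STAT proteins. Type I interferons induce antiviral genes through interferon-stimulated response elements, and interferon gamma additionally induces the class II transactivator CIITA and with it the MHC class II genes, which resting keratinocytes hardly express. Differentiation of keratinocytes is set by factors such as TP63, KLF4 and the Notch receptors, against a proliferative state to which MYC contributes.

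Levels are given as CPM, read counts divided by a library's total and set to the same sum, after TMM scaling for library composition, and changes are log2 differences with their standard error (SE) from 1 edgeR quasi-likelihood fit of all 12 libraries. A gene was called when its p-value, adjusted by Benjamini-Hochberg over 12878 tested genes, was under 0.05. Library totals were 7640273 and 6220751 counts in blue_3 a and b but 3517401 and 2073160 in blue_14 a and b, and 6452030, 7027034, 3561392 and 7950222 in dark_3 a and b and dark_14 a and b. The blue_14 b library was thus the smallest of the series, and 3 counts in it equal 1.43 CPM against 0.364 CPM in the largest. The SD over genes of the log2 difference between the 2 libraries of a group, which includes counting noise, was 0.349 in blue_14, 0.240 in blue_3, 0.159 in dark_3 and 0.252 in dark_14. Relative to counting noise, chi-square over its degrees of freedom was 5.05 in blue_14, 5.85 in blue_3, 1.64 in dark_3 and 5.14 in dark_14. This ratio grows with library totals, which were smaller in blue_14 than in blue_3, so it cannot rank the spread of these groups. Transcripts of the mitochondrial genome made up 13.8% of counts in both blue_3 libraries and 15.7% and 14.7% in blue_14 a and b. Whether libraries a and b came from separate cultures is not stated in the labels, and p-values then measure only how far such libraries spread, which may be a technical spread. In bulk RNA, fewer cells expressing a gene and less RNA of it per cell cannot be told apart. The summed keratinocyte markers, 20 genes such as KRT5, KRT14 and TP63, lay between 10233 and 12187 CPM in the 4 irradiated libraries.

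Between 3 and 14 irradiations, 801 of 12878 genes (6.22%) changed in irradiated cells, 466 higher (3.62%) and 335 lower (2.6%) at 14. Among the genes that rose were members of the alarmins, acute-phase and complement proteins, MHC class II, interferon-stimulated genes, NF-kappaB feedback inhibitors, the hypoxia response and keratinocyte transcription factors. Those that fell included genes of DNA replication, heat shock chaperones, BMP4 and N-cadherin. Called rises were larger than called falls, with a median log2 difference of 0.82 over the genes called higher and -0.57 over those called lower. Of these, 162 against 28 genes changed at least 2-fold. The 2 sets differed in level, with a median of 45.9 CPM in the higher group for rises and 104 CPM for falls. Their median SE was 0.18 and 0.14. Whether level or SE accounts for the larger called rises was not tested. The median over all tested genes was 0.01, so the scaling centred the comparison near 0. The number of calls depended on single libraries, with 110 without blue_3 b, 127 without blue_14 b, 500 without blue_3 a, 495 and 500 without dark_3 a or b, and 1076 without blue_14 a.

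The dark controls moved in the same direction for nearly all of these genes. In dark cells 1638 genes were called (12.7%), 1044 higher (8.11%) and 594 lower (4.61%) at 14 than at 3. Of the 801 genes called in irradiated cells, 765 (95.5%) had the same sign in dark cells, against 8858 (68.8%) of all 12878 tested genes. The dark change also had an unadjusted p-value under 0.05 in the same direction for 573 of the 801, called alike below, was of the same sign only for 192 and had the opposite sign for 36. Genes called in both arms in the same direction numbered 426, which is 53.2% of the irradiated calls and 26% of the dark calls. When the difference between the irradiated and the dark change was itself tested, 5 genes were called (0.0388%). Leaving out 1 library moved these counts too: 336 dark calls were left without dark_3 a, 406 without dark_3 b and 421 without dark_14 a. The 426 shared calls came to 84 without blue_3 b, 90 without blue_14 b, 240 without blue_3 a, 130 and 139 without dark_3 a or b and 186 without dark_14 a.

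**Figure D1:**
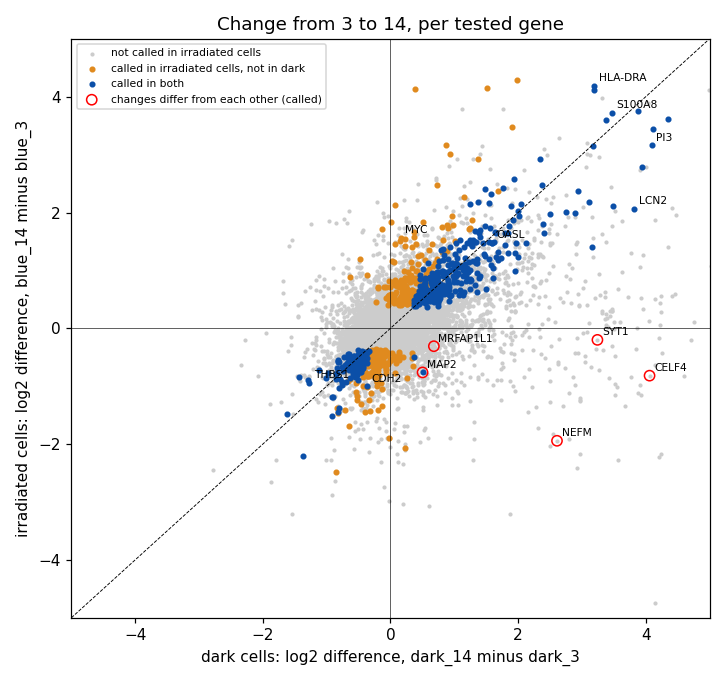
Log2 difference from 3 to 14 irradiations in irradiated cells (vertical axis, blue_14 minus blue_3) against that in dark cells (horizontal axis, dark_14 minus dark_3), 1 point per tested gene; 27 genes lie outside the axes. Blue points are called in both arms, orange points in irradiated cells only, red circles mark the 5 genes whose changes differ by test, and the dashed line marks equal change. Most coloured points lie in the quadrants of equal sign, 765 of 801.

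Across genes the 2 changes had a Pearson r of 0.471 over all 12878 tested genes and 0.715 over the 8689 genes with a mean of at least 10 CPM. These values describe the genes, which are not independent replicates and share the 12-library fit.

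Interferon-stimulated genes formed the list with the most calls, and a regulatory sequence known from many of them was looked for in their promoters. The 250 bases before the gene start (RefSeq, GRCh38.p14) are shown for 3 of them that rose, because the interferon-stimulated response element is built of GAAA repeats. Both strands were searched for 2 copies of GAAA separated by 1 or by 2 bases of any kind. The sequences are those of RSAD2 at chr2:6865635-6865884, plus strand, OAS1 at chr12:112906712-112906961, plus strand, and IFIT3 at chr10:89327747-89327996, plus strand, written 5′ to 3′ with the matches in capitals.
RSAD2: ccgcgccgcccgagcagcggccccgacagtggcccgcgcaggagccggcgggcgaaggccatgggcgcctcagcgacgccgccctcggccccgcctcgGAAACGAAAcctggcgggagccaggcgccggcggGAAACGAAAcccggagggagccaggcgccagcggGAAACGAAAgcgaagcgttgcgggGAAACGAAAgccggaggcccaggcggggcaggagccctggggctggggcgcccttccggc
OAS1: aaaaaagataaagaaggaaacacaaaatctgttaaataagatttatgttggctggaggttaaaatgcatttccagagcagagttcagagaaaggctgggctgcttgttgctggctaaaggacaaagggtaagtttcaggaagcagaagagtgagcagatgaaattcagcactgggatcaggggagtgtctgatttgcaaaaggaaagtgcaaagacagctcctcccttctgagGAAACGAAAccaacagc
IFIT3: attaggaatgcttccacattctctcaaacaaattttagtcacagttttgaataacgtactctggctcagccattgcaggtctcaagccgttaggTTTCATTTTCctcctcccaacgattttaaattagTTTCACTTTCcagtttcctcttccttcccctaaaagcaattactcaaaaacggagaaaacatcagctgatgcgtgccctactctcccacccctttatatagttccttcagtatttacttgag

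The RSAD2 window holds 4 matches with the 1-base gap, the OAS1 window 1 match close to the gene start, and the IFIT3 window 2 matches with the 2-base gap read on the other strand. Of the 32 list members with a promoter in the table, 24 (75%) held 1 of the 2 forms, against 441 of 10135 promoters of tested genes (4.35%) and 1531 of all 27305 promoters (5.61%). Among list members that rose the share was 14 of 18 (77.8%), and among those not called it was 10 of 14 (71.4%). Over all genes called higher the motif stood in 37 of 354 promoters (10.5%), and over all genes called lower in 11 of 279 (3.94%). The 37 include the 14 from the interferon-stimulated list. The 2 forms can overlap in 1 stretch of sequence, and the second was added after the first had been counted. The windows of CMPK2 and GBP4, which rose as well, held no match, as was so for 8 of the 32 list promoters. The CMPK2 window, chr2:6866636-6866885 on the minus strand, lies close to that of RSAD2. The RSAD2 window is downstream of the CMPK2 start, so its 4 matches stand near both genes. A match describes the letters and shows no binding.

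Of 40 tested interferon-stimulated genes, 21 rose in irradiated cells and none fell, against 3.62% of all tested genes called higher, and 36 of 40 had a log2 difference above 0. The list median was 0.62 in irradiated and 0.74 in dark cells. OASL (chr12:121019111-121039242 on GRCh38), an oligoadenylate synthetase-like antiviral protein, stood at 55.6 and 59.1 CPM in blue_3 a and b and at 165 and 155 CPM in blue_14 a and b. Both later libraries lay far above both earlier ones, a rise of 1.48 ± 0.12 on the log2 scale (SE, edgeR adjusted p = 1.43e-06). In dark cells OASL went from 59.9 and 59.5 CPM to 165 and 192 CPM, which was alike at 1.58 ± 0.12.

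RSAD2, the radical SAM antiviral enzyme viperin, had 28.2 and 31.6 CPM in blue_3 and 84.2 and 76.9 CPM in blue_14, a log2 difference of 1.44 ± 0.16 (edgeR adjusted p = 2.39e-05). OAS1, which makes the oligoadenylates that activate RNase L, had 26.9 and 24.9 CPM against 62.6 and 64.0 CPM, a log2 difference of 1.28 ± 0.14. CMPK2, a mitochondrial nucleotide kinase, differed by 1.32 ± 0.19. The groups did not overlap for any of these genes, and the dark changes were alike at 1.80, 1.47 and 1.68 on the log2 scale. Of the 21 list members that rose, 20 were also called in dark cells. The exception was IFITM1, named after its values were seen, at 0.79 and 0.49 CPM in blue_3, 2.01 and 4.30 CPM in blue_14, and a dark log2 difference of 0.08. None of the 40 genes was called in the test of the difference between arms, and 6 had an unadjusted p under 0.05 there. Without blue_14 b, blue_3 a or blue_3 b the 21 calls were 12, 12 and 10, and 15 after all libraries were thinned to the smallest, while the list median stayed between 0.56 and 0.68 in these and all other fits.

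Guanylate-binding proteins and the interferon gamma receptor, looked at after their values were seen, rose as well. GBP4, an interferon-inducible GTPase, had 29.3 and 32.2 CPM in blue_3 and 81.9 and 89.3 CPM in blue_14, a log2 difference of 1.47 ± 0.14 (edgeR adjusted p = 1e-05). GBP1, another member of this family, differed by 0.82 ± 0.17. IFNGR1, a chain of the interferon gamma receptor, went from 17.9 and 16.7 to 39.1 and 34.4 CPM, a log2 difference of 1.10 ± 0.15. The dark changes of these 3 genes were alike, at 1.60, 1.19 and 0.90.

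Genes of MHC class I antigen presentation were called in 1 direction. Of 14 tested genes 8 rose and none fell, against 3.62% of all tested genes called higher. All 14 log2 differences were above 0, and the median was 0.60, against 0.69 in dark cells. HLA-B, a classical class I heavy chain, had 271 and 195 CPM in blue_3 and 381 and 551 CPM in blue_14, a log2 difference of 0.99 ± 0.20 (edgeR adjusted p = 0.0149). HLA-F, a non-classical heavy chain, differed by 1.04 ± 0.19 and PSMB9, a subunit of the immunoproteasome, by 0.60 ± 0.14. The dark change was alike for all 3 of these genes. No call on this list was left without blue_14 b or without blue_3 b and 5 without blue_3 a, at medians of 0.48, 0.48 and 0.58. The class I heavy chains are close relatives, and reads of near-identical copies may have been split between them by the counting.

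**Figure D2:**
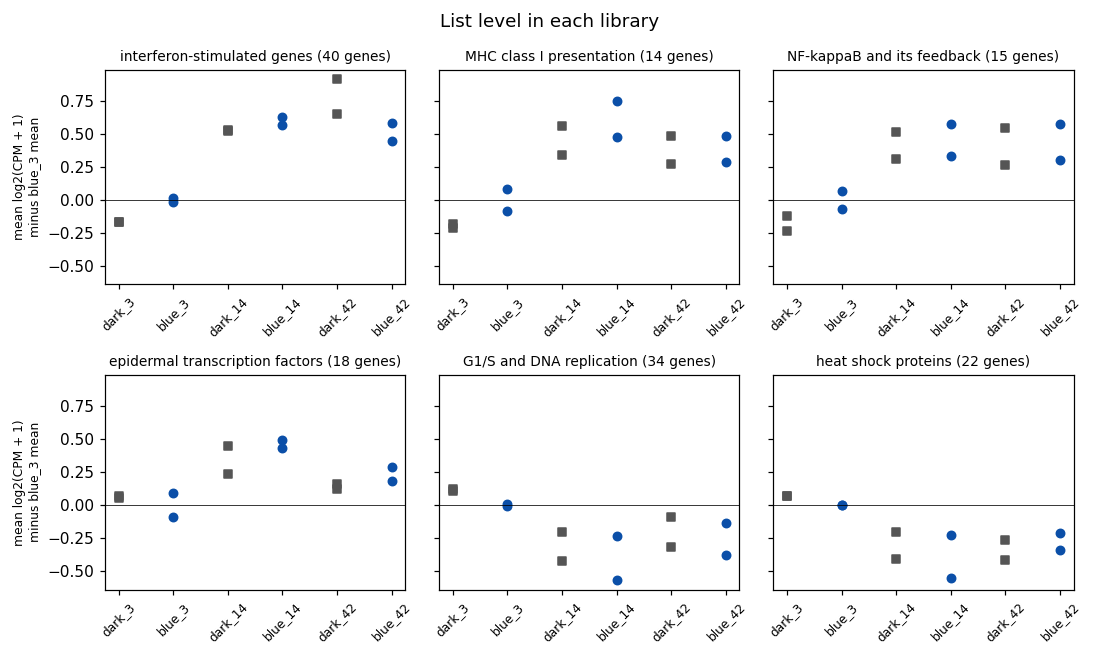
Level of 6 gene lists in each of the 12 libraries: the mean over list members of log2(CPM + 1), minus the mean of the 2 blue_3 libraries (vertical axis, log2), by group (horizontal axis), circles for irradiated and squares for dark libraries. The interferon-stimulated list stood at 0.63 and 0.57 in blue_14 a and b and at 0.52 and 0.53 in dark_14 a and b, above all 4 libraries at 3 irradiations.

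The 15 genes that rose most in irradiated cells were led by MHC class II. They were the largest log2 differences among called genes with at least 10 CPM and groups that did not overlap, a rule that 396 genes met, and the fifteenth stood at 2.11 and the next, LCN2, at 2.06. Groups that did not overlap were common: both blue_14 libraries lay above both blue_3 libraries for 25.6% of tested genes and below for 25.5%, and in dark cells these shares were 32.9% and 30%. HLA-DRA (chr6:32439842-32445046, GENCODE 29 on GRCh38, as all gene positions here), the alpha chain of HLA-DR, had 0.93 and 0.81 CPM in blue_3 a and b and 11.8 and 22.4 CPM in blue_14 a and b. The gene was close to the limit of 3 counts at 3 irradiations and clearly expressed at 14, a rise of 4.19 ± 0.50 on the log2 scale (SE, edgeR adjusted p = 0.000365). In dark cells it went from 0.63 and 0.72 to 8.31 and 5.24 CPM, alike at 3.19 ± 0.58. HLA-DRB1, the partner beta chain, went from 0.93 and 0.49 to 9.19 and 18.1 CPM, a log2 difference of 4.12 ± 0.92 (edgeR adjusted p = 0.0369). Near-identical HLA-DRB copies make its level uncertain.

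The other class II genes, looked at after these values were seen, were followed as a group. CIITA, the transactivator that switches class II genes on, had 2.38 and 0.97 CPM in blue_3 and 8.62 and 9.07 CPM in blue_14, a log2 difference of 2.33 ± 0.38 (edgeR adjusted p = 0.0013), with an alike dark change of 1.58 ± 0.33. HLA-DQB1, a beta chain of HLA-DQ, differed by 1.15 ± 0.25, with a dark change of 1.23. HLA-DMA, which helps load class II peptides, differed by 2.02 ± 0.54. CD74, the invariant chain, had 1.32 and 0.81 CPM in blue_3 and 14.7 and 25.8 CPM in blue_14. Its log2 difference of 4.12 ± 1.38 was not called (edgeR adjusted p = 0.147), nor was that in dark cells. Class II genes are also expressed by leukocytes, whose 17 markers summed to 5.95 and 5.82 CPM in blue_3 and 5.45 and 7.63 CPM in blue_14. Of these markers 7, among them the lymphocyte genes CD3D, CD2, MS4A1 and NKG7, had no count in any of these 4 libraries, while PTPRC, the pan-leukocyte marker, had 0 and 0.65 CPM in blue_3 and 0.29 and 0 CPM in blue_14. Among the myeloid markers AIF1 and LYZ had no count in blue_3 and 0.29 and 0.95 CPM each in blue_14, and CD14 had 2.38 and 1.78 CPM in blue_3 and 2.30 and 3.34 CPM in blue_14. The part of leukocyte transcripts in the class II values was not tested.

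**Figure D3:**
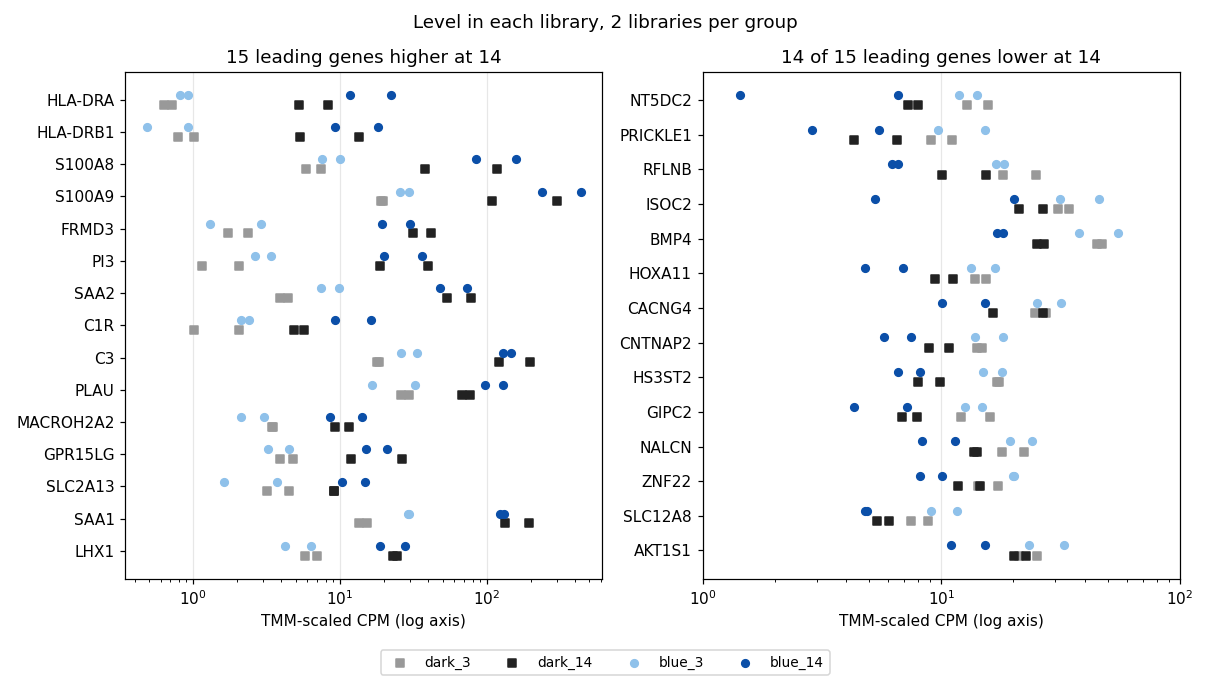
Level in each library at 3 and 14 irradiations, in TMM-scaled CPM on a log axis, of the 15 leading genes that rose (left) and 14 of the 15 that fell (right); circles are irradiated and squares dark libraries, light symbols 3 and dark symbols 14 irradiations. On the left the dark libraries at 14 lie above those at 3 for all 15 genes, as the irradiated ones do.

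Secreted alarmins and acute-phase proteins followed. S100A8 (chr1:153390032-153391188), which with S100A9 forms the alarmin calprotectin, had 10.1 and 7.61 CPM in blue_3 and 84.8 and 157 CPM in blue_14, a log2 difference of 3.73 ± 0.71 (edgeR adjusted p = 0.0354). S100A9 went from 29.4 and 25.7 to 237 and 436 CPM, a log2 difference of 3.59 ± 0.69. The 2 later libraries also differed from each other in dark cells, where S100A9 went from 19.0 and 19.6 to 299 and 109 CPM. PI3, the elastase inhibitor elafin, went from 2.65 and 3.40 to 20.1 and 36.3 CPM, a log2 difference of 3.16 ± 0.61. All 3 dark changes were alike, at 3.47, 3.37 and 4.09.

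SAA1 and SAA2, serum amyloid A proteins of the acute-phase response, are near-identical neighbours on chromosome 11, so their split of reads is uncertain. SAA1 went from 28.9 and 29.5 to 123 and 132 CPM, a log2 difference of 2.12 ± 0.34 (edgeR adjusted p = 0.0145), and SAA2 differed by 2.78 ± 0.54. In dark cells SAA1 rose further, by 3.49 ± 0.36, from 15.4 and 13.5 to 195 and 134 CPM. The difference between arms for SAA1 had an unadjusted p of 0.025 but was not called (edgeR adjusted p = 0.525). It was the only 1 of the 15 with an unadjusted p under 0.05 in that test.

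C3 (chr19:6677704-6730562), the central complement component, had 33.5 and 26.2 CPM in blue_3 and 129 and 145 CPM in blue_14, a log2 difference of 2.19 ± 0.41 (edgeR adjusted p = 0.0295). C1R, a protease that starts the classical complement pathway, went from 2.38 and 2.1 to 9.19 and 16.2 CPM, a log2 difference of 2.42 ± 0.38. PLAU, the urokinase plasminogen activator, which acts in wound repair, went from 32.6 and 16.5 to 97.7 and 130 CPM, a log2 difference of 2.18 ± 0.28. None of these groups overlapped, and the dark changes were alike at 3.11, 1.76 and 1.37.

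The remaining leading genes of this direction were FRMD3, which encodes a FERM domain protein, MACROH2A2, a macroH2A histone variant, GPR15LG, a ligand of the receptor GPR15, SLC2A13, a proton-coupled inositol transporter, and LHX1, a LIM homeobox factor. FRMD3 differed by 3.44 ± 0.69 and the other 4 by 2.11 to 2.17 on the log2 scale. LHX1 had 4.24 and 6.31 CPM in blue_3 and 18.7 and 27.7 CPM in blue_14, with the smallest adjusted p of the 15, 7.13e-05 by edgeR. Its dark levels were nearly the same, at 6.98 and 5.76 CPM at 3 and 24.3 and 22.9 CPM at 14. In all, the dark change was alike and called for 15 of these 15 genes, at log2 differences from 1.24 to 4.12, and the difference between arms was called for none, by edgeR, with 1 at an unadjusted p under 0.05.

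The higher of the irradiated libraries was blue_14 b for 14 of the 15, and the higher dark library was dark_14 a for all 15, so the size of these rises differed between libraries of 1 group. HLA-DRA, C1R, PLAU, MACROH2A2, SLC2A13 and LHX1 were called in each of the 12 fits that left out 1 library, while S100A8 and S100A9 were called in 4 and 5 of them. Without blue_14 b 6 of the 15 calls remained, as without blue_3 a or blue_3 b, and without blue_14 a 11.

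The 15 genes that fell most did so by less, between 1.04 and 1.51 on the log2 scale. They came from 325 genes that met the same rule, with the next, DLEU1, at -1.04. BMP4 (chr14:53949736-53958761), a bone morphogenetic protein, had 37.9 and 55.2 CPM in blue_3 a and b and 18.1 and 17.2 CPM in blue_14 a and b. Both later libraries lay below both earlier ones, a log2 difference of -1.38 ± 0.27 (edgeR adjusted p = 0.0111), and its dark change of -0.81, from 45 and 47.1 to 25.2 and 27.1 CPM, was alike. NT5DC2, a protein of the 5′-nucleotidase domain family, fell most, with 14.2 and 11.8 CPM in blue_3 and 6.61 and 1.43 CPM in blue_14, where the lower value rests on 3 counts. PRICKLE1, a planar cell polarity protein, differed by -1.47 ± 0.38, RFLNB, a filamin-binding protein, by -1.45 ± 0.31, and HS3ST2, a heparan sulfate sulfotransferase, by -1.18 ± 0.25. GIPC2, a PDZ domain protein, differed by -1.18, CNTNAP2, a neurexin family member, by -1.23, NALCN, a sodium leak channel, by -1.17, and SLC12A8, of the cation-chloride cotransporter family, by -1.10. The dark changes of these genes were alike.

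For 5 of the 15 the dark change had the same sign with an unadjusted p of 0.05 or more. These were ISOC2, HOXA11, a homeobox factor, CACNG4, a calcium channel auxiliary subunit, ZNF22, a zinc finger protein, and AKT1S1, an inhibitory subunit of the kinase complex mTORC1. AKT1S1 went from 23.4 and 32.7 to 15.2 and 11 CPM in irradiated cells, a log2 difference of -1.04 ± 0.23 (edgeR adjusted p = 0.0119), and from 21.1 and 25.2 to 22.6 and 20.2 CPM in dark cells. The dark groups overlapped for AKT1S1, CACNG4 and ZNF22 and stood apart, lower at 14, for the remaining 12 of the 15. The difference between arms had an unadjusted p under 0.05 for 5 of the 15, HOXA11, CACNG4, NALCN, ZNF22 and AKT1S1, the smallest being 0.00671 for AKT1S1, and edgeR called none of them. Without blue_14 b or without blue_3 b 4 of these 15 calls remained, without blue_14 a 10 and without blue_3 a 13.

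Of 15 tested genes of NF-kappaB and its feedback 6 rose and none fell in irradiated cells, with a median of 0.51. Over all tested genes 3.62% were called higher. In dark cells 9 rose and 1 fell, against 8.11% and 4.61% of all tested genes, with a median of 0.54. NFKBIZ, an inducible nuclear inhibitor of kappaB family member, had 27.4 and 22.2 CPM in blue_3 and 50.3 and 59.7 CPM in blue_14, a log2 difference of 1.13 ± 0.19 (edgeR adjusted p = 0.00181). NFKBIA, the inhibitor that retains NF-kappaB in the cytoplasm, differed by 0.84 ± 0.16, and BIRC3, an inhibitor of apoptosis, by 1.30 ± 0.27. Dark changes were alike for these genes. Without blue_14 b or without blue_3 b 1 of the 6 calls was left, at medians of 0.38 and 0.39. Among 18 chemokines and cytokines 3 rose and none fell, and 0 were called without blue_14 b and 1 without blue_3 b. The share over all tested genes was again 3.62% higher. CXCL1, which attracts neutrophils, differed by 0.84 ± 0.17, and IL1A, the constitutive keratinocyte alarmin cytokine, by 1.32 ± 0.32, both with alike dark changes. IL1B, the inflammasome-processed cytokine, went from 20.3 and 25.1 to 38.2 and 40.1 CPM, a log2 difference of 0.79 ± 0.16 (edgeR adjusted p = 0.00772). Its dark change of 0.19 was of the same sign only, since dark_3 stood at 34.6 and 29.8 CPM, above blue_3. CXCL8, another neutrophil chemokine, differed by 1.02 ± 0.38 and was not called.

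Of the 14 stress keratins and alarmins 5 rose and none fell, against 3.62% of all tested genes called higher. The median was 0.73, and all 5 were also called in dark cells. With the library letter as a block 2 of the 5 were called, without blue_3 a also 2, and without blue_14 b or blue_3 b none. Besides the leading genes these were LCN2 and SLPI, a leukocyte protease inhibitor, the latter at 58.4 and 57.3 CPM in blue_3 and 94.5 and 125 CPM in blue_14. The stress keratins themselves gave no call: KRT16, KRT17 and KRT6A differed by 0.55, -0.15 and -0.31.

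Some genes of DNA replication fell. Of 34 genes of the G1/S transition and DNA replication 10 fell and none rose, against 2.6% of all tested genes called lower, 31 of 34 lay below or at 0, and the median was -0.38, against -0.43 in dark cells. RFC3, a clamp loader subunit of the replication fork, had 108 and 126 CPM in blue_3 and 73.3 and 54.9 CPM in blue_14, a log2 difference of -0.84 ± 0.15 (edgeR adjusted p = 0.00396). MCM5 and MCM7, subunits of the replicative helicase, differed by -0.69 ± 0.13 and -0.44 ± 0.12, and CDC6, which loads that helicase, by -0.48 ± 0.13. Each of these 4 dark changes was alike. No call on this list was left without blue_14 b, 1 without blue_3 b and 2 without blue_3 a, dark_3 a or dark_3 b, and the median ranged from -0.59 without blue_14 a to -0.29 without blue_14 b.

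Among 33 genes of G2/M and mitosis 2 fell, PRC1, a spindle midzone protein, and HMMR, a spindle-associated hyaluronan receptor, each by 0.54 on the log2 scale, and neither was called without blue_14 b or without blue_3 b. Over all tested genes 2.6% were called lower. MKI67, the common proliferation marker, had 867 and 1043 CPM in blue_3 and 884 and 731 CPM in blue_14. These groups overlapped, and the MKI67 log2 difference of -0.24 ± 0.14 was not called. None of 29 double-strand break repair genes was called by edgeR or DESeq2, while 11 lay lower and 1 higher at an unadjusted p under 0.05 and the median was -0.27.

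Of 22 tested heat shock chaperones and their partners 8 fell and none rose, against 2.6% of all tested genes called lower, and the median was -0.36, against -0.46 in dark cells. HSP90AA1, the inducible cytosolic HSP90, stood at 3846 and 4391 CPM in blue_3 and at 2512 and 1801 CPM in blue_14, a log2 difference of -0.93 ± 0.18 (edgeR adjusted p = 0.0098). HSPH1, a nucleotide exchange factor of HSP70, differed by -0.86 ± 0.19, HSPA8, the constitutive HSP70, by -0.72 ± 0.17, and FKBP4, an HSP90 co-chaperone, by -0.61 ± 0.15. The 4 dark changes were alike. No heat shock call was left without blue_14 b or blue_3 b and 3 without blue_3 a, with a median between -0.56 and -0.23 over the fits that left out 1 library.

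Genes of ATF4 and the unfolded protein response were called in both directions, 3 of 29 higher and 2 lower, and no call was left without blue_14 b or without blue_3 b. Over all tested genes 3.62% were called higher and 2.6% lower. CHAC1, a target of ATF4 that degrades glutathione, went from 6.62 and 7.29 to 18.1 and 22.9 CPM, a log2 difference of 1.54 ± 0.34 (edgeR adjusted p = 0.017). Its dark change of 0.24 was of the same sign only. SDF2L1 and HYOU1, chaperones of the endoplasmic reticulum, differed by -0.83 ± 0.16 and -0.52 ± 0.12. EDEM1, which directs misfolded proteins to degradation, differed by 1.20 ± 0.30 in irradiated and by -0.47 ± 0.28 in dark cells. In the test of the difference between arms 10 of the 29 genes had an unadjusted p under 0.05, against 8% of all tested genes. None of the 29 was called there.

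Genes of the hypoxia response and glycolysis rose in part, with 9 of 31 higher and 1 lower, and 2, 3 and 4 higher without blue_14 b, blue_3 b or blue_3 a. The shares over all tested genes were 3.62% higher and 2.6% lower. VEGFA, the vascular growth factor, had 23.8 and 29.6 CPM in blue_3 and 53.7 and 49.7 CPM in blue_14, a log2 difference of 0.96 ± 0.16 (edgeR adjusted p = 0.00134). BNIP3L, a mitophagy receptor, differed by 0.78 ± 0.14 and ADM, the peptide adrenomedullin, by 0.88 ± 0.18, both with alike dark changes. PDK1, a kinase that inhibits pyruvate dehydrogenase, went from 7.82 and 8.58 to 18.7 and 17.2 CPM, a log2 difference of 1.14 ± 0.21. In dark cells the change was 0.32 and of the same sign only. Mitochondrially encoded transcripts rose for 4 of 15, with 0 called higher without blue_3 b, 1 without blue_14 b and 2 without blue_3 a. Their median of 0.34 was 0.15 without blue_14 a. Among the 4 was MT-CO1, a cytochrome oxidase subunit, which went from 2866 and 2606 to 4029 and 4527 CPM. Its log2 difference was 0.64 ± 0.12, with a dark change of 0.31.

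Of 18 epidermal transcription factors 6 rose and none fell in irradiated cells, against 3.62% of all tested genes called higher. Their median was 0.46. In dark cells 2 rose, against 8.11% of all tested genes, with a median of 0.28. The difference between arms was called for none of the 18, with 4 at an unadjusted p under 0.05. Without blue_14 b or without blue_3 b 3 of the 6 were called. TP63, the master factor of stratified epithelium, had 48.9 and 36.1 CPM in blue_3 and 77.6 and 77.8 CPM in blue_14, a log2 difference of 0.86 ± 0.15 (edgeR adjusted p = 0.00181). In dark cells it stood at 48.2 and 41.9 and at 52.7 and 53.1 CPM, a change of 0.23 that was of the same sign only, and the difference between arms had an unadjusted p of 0.00541 and an adjusted p of 0.368. KLF4, a differentiation factor, went from 12.7 and 10.8 to 24.1 and 34.4 CPM, a log2 difference of 1.26 ± 0.19 with an alike dark change of 0.84. PRDM1, which acts in terminal differentiation, differed by 3.17 ± 0.68, with 0.40 and 0.32 CPM in blue_3 and 3.16 and 3.82 CPM in blue_14.

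MYC (chr8:127735434-127741434), a driver of cell growth counted among the immediate early genes, had 10.3 and 7.61 CPM in blue_3 and 22.1 and 32.9 CPM in blue_14, a log2 difference of 1.56 ± 0.22 (edgeR adjusted p = 0.000406). The dark libraries stood between these levels, at 16.2 and 15.3 CPM at 3 and 16.9 and 18.0 CPM at 14, a change of 0.16 ± 0.19. The difference between arms was 1.40 ± 0.29 and was not called (edgeR adjusted p = 0.0793). Of 24 immediate early genes 4 rose, 8 without blue_14 a and 2 without blue_14 b or blue_3 b, and the median was 0.37, against 0.17 in dark cells. Over all tested genes 3.62% were called higher. Of 18 Notch pathway genes 3 rose. NOTCH1, a receptor, rose by 0.56 ± 0.14, the ligand JAG1 by 0.42 ± 0.11 and NRARP, a feedback inhibitor, by 1.02 ± 0.27. No gene of this list was called without blue_14 b, without blue_3 b or in a fit of the 4 irradiated libraries alone. The dark log2 difference of NOTCH1 was 0.00 ± 0.13.

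Markers of differentiation gave few calls. Of 15 cornified envelope and barrier genes none was called higher by edgeR, with 3 higher at an unadjusted p under 0.05 and none by DESeq2, and 1, the desquamation protease KLK5, fell, from 173 and 175 to 104 and 102 CPM, a log2 difference of -0.75 ± 0.12 (edgeR adjusted p = 0.00104). Involucrin, IVL, a scaffold of the cornified envelope, had 193 and 164 CPM in blue_3 and 144 and 178 CPM in blue_14, a log2 difference of -0.16 ± 0.15 that was not called. In dark cells IVL rose by 0.87 ± 0.15, from 106 and 106 to 225 and 164 CPM, and the difference between arms was -1.02 with an edgeR adjusted p of 0.0793. Filaggrin, FLG, the precursor of natural moisturizing factor, moved the other way, by 0.52 ± 0.18 in irradiated cells, not called, and by -0.62 ± 0.16 in dark cells, called. The keratins KRT1, KRT10, KRT5 and KRT14 were not called in either arm.

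Adhesion genes were called in both directions, and of 16 cadherin and desmosome genes 4 were called higher and 1 lower. Over all tested genes these shares were 3.62% and 2.6%. The 4 higher calls were all lost without blue_14 b, blue_3 b, dark_3 a or dark_3 b, and 2 were made without blue_3 a and 1 without either blue_42 library, while the lower call stood in each of these fits. CDH2, N-cadherin, went from 80.4 and 84.8 to 41.1 and 41.5 CPM, a log2 difference of -1.0 ± 0.13 (edgeR adjusted p = 0.000138), with an alike but smaller dark change of -0.36 ± 0.11; the difference between arms had an unadjusted p of 0.00126 and an adjusted p of 0.198. CDH3, P-cadherin, rose by 0.58 ± 0.16, CTNND1, p120 catenin, by 0.40 ± 0.11, and PERP, a desmosomal p53 target, by 0.41 ± 0.11. Of 13 tight junction genes CLDN1, the main epidermal claudin, rose by 0.79 ± 0.12 and F11R, a junctional adhesion molecule, by 0.42 ± 0.11, while TJP1, the scaffold ZO-1, fell by 0.62 on the log2 scale. On a list of 9 genes headed simple epithelial keratins, KRT4 and KRT18 fell. KRT4, which belongs to stratified mucosa and not to simple epithelium, went from 573 and 531 to 257 and 318 CPM. KRT18 fell by 0.41 on the log2 scale. The list median of -0.16 ran from -0.24 without blue_3 b to 0.02 without blue_3 a. THBS1, the matrix protein thrombospondin, fell by 0.94 in irradiated and 1.27 in dark cells.

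Genes used as readouts of DNA damage and oxidative stress gave single calls. CDKN1A, the cell cycle inhibitor p21, had 65.4 and 62.2 CPM in blue_3 and 82.2 and 111 CPM in blue_14, a log2 difference of 0.58 ± 0.17 (edgeR adjusted p = 0.0464). In dark cells it rose by 1.14 ± 0.16, from 44.4 and 44.2 CPM to 116 and 82.5 CPM. BBC3, the proapoptotic protein PUMA, rose by 1.65 ± 0.26 in irradiated and 1.66 ± 0.26 in dark cells, and 3 of 25 p53 targets were called higher in irradiated cells, 1 without blue_14 b or without blue_3 b. Over all tested genes 3.62% were called higher. HaCaT carries mutant p53, although the labels give the cells as wild-type, so p53 targets need not report p53 activity here. HMOX1, the oxidant-induced haem oxygenase, had 1.72 and 3.89 CPM in blue_3 and 2.87 and 3.82 CPM in blue_14. These groups overlapped, and HMOX1 was not called. Of 24 NRF2 targets only AKR1C3, an aldo-keto reductase, rose, by 1.17 ± 0.33, and no target was called higher when any library of blue_3, blue_14 or dark_3 was left out. GDF15, a stress cytokine, differed by 1.96 ± 0.64 and MMP1, a collagenase, by 0.41 ± 0.45, neither called, and OPN3, an opsin of skin cells, by -0.08 ± 0.13. Of 14 genes of light sensing and haem synthesis none was called by edgeR or DESeq2, with 1 at an unadjusted p under 0.05, and the same tools called none of 8 aryl hydrocarbon receptor targets, with 3 at that level, and none of 15 YAP and TEAD targets by edgeR but 1 by DESeq2.

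**Figure D4:**
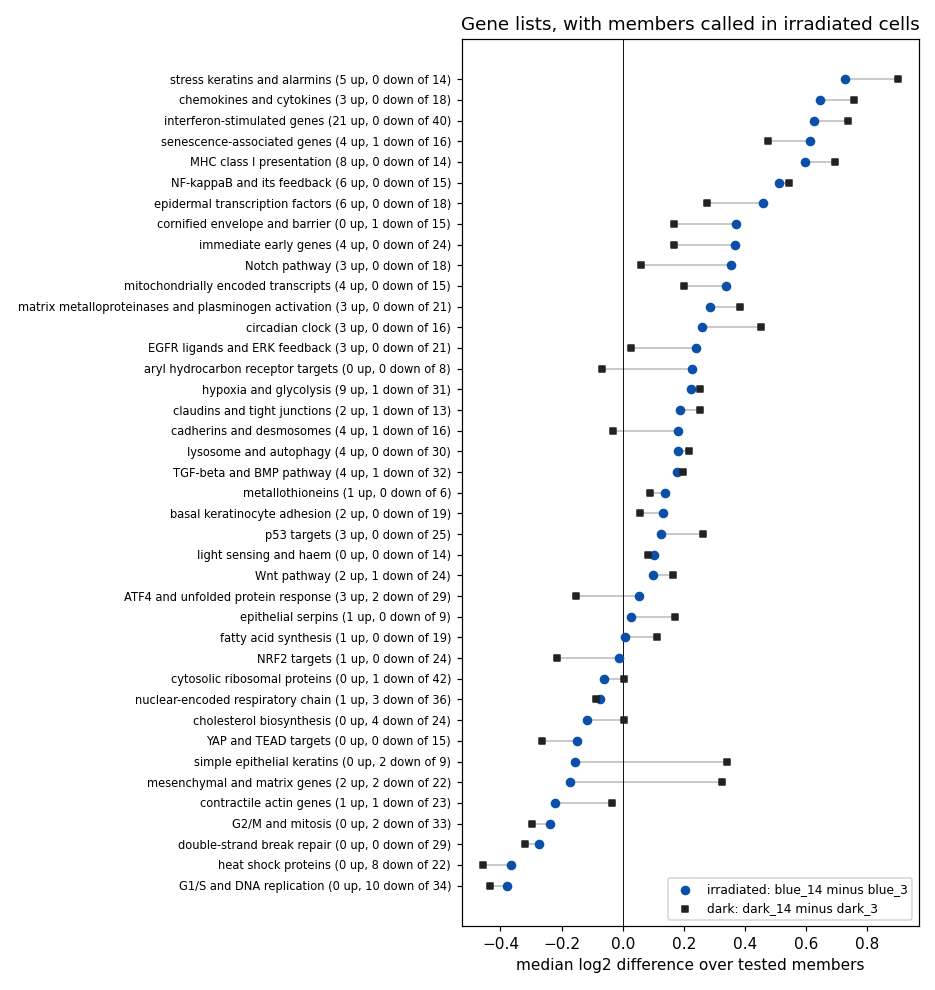
Median log2 difference from 3 to 14 irradiations over the tested members of 40 gene lists, circles for irradiated and squares for dark cells, ordered by the irradiated value; counts beside each name are the members called higher and lower in irradiated cells. The lists at both ends, from 0.73 for stress keratins and alarmins to -0.38 for G1/S and DNA replication, have the same sign in both arms.

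The 5 genes whose irradiated change differed from the dark change by test were SYT1, CELF4, NEFM, MAP2 and MRFAP1L1, all with a lower change in irradiated cells. No gene was called with a higher change, while 412 of the 1030 genes at an unadjusted p under 0.05 lay in that direction, and DESeq2 called 15 genes, 1 of them higher. When each library was left out in turn the 5 calls ranged from 1 to 38, with 1 without blue_3 b, dark_3 a or either blue_42 library and 38 without blue_3 a. SYT1, a calcium sensor of synaptic vesicles, stood at 6.76 and 11.7 CPM in blue_3, 7.76 and 8.12 CPM in blue_14, with dark libraries at 2.06 and 2.16 CPM for dark_3 and 23.5 and 17.8 CPM for dark_14. The irradiated groups overlapped, and the rise was in the dark arm, a difference between arms of -3.44 ± 0.44 (edgeR adjusted p = 0.00183). MAP2, a microtubule protein of neurons, fell from 32.5 and 36.4 to 20.4 and 20.1 CPM in irradiated cells and rose from 21.6 and 21.0 to 29.5 and 30.7 CPM in dark cells. Both changes were called, at -0.76 ± 0.16 and 0.50 ± 0.15. SELENOW, a small selenoprotein named because it was the only other gene called in opposite directions, went from 111 and 102 to 72.1 and 78.8 CPM in irradiated and from 88.8 and 74.3 to 103 and 106 CPM in dark cells. Its difference between arms of -0.86 ± 0.17 had an edgeR adjusted p of 0.0728.

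MRFAP1L1, a relative of the MORF4-associated protein family, had 169 and 168 CPM in blue_3, 125 and 148 CPM in blue_14, with dark libraries at 119 and 119 CPM for dark_3 and 200 and 182 CPM for dark_14. As for MAP2, blue_3 and dark_14 were the 2 high groups. CELF4 and NEFM, both best known from neurons, showed it at 0.16 to 6.87 CPM. Over the 26 neuronal markers the summed level was 217 and 221 CPM for dark_3 and 268 and 303 CPM in blue_3. It was 257 and 258 CPM in dark_14 and 187 and 163 CPM in blue_14. The 26 include SYT1, CELF4, NEFM and MAP2, so the sum moved in part with them. Its largest member, NEFL, fell in dark cells, from 146 and 146 CPM in dark_3 to 58.6 and 94.5 CPM in dark_14. Of the 22 tested neuronal markers 16 were called higher in the dark comparison, against 8.11% of all tested genes. In the irradiated one 0 were called higher and 1 lower, against 3.62% and 2.6%. The 22 include SYT1, CELF4, NEFM and MAP2, and low markers passed the filter only through the groups where they were high. RBFOX1, for example, stood at 4.86 and 1.79 CPM in dark_14 and at no more than 1.15 CPM elsewhere. The count of 16 was therefore in part fixed by selection. TUBB3, a defining neuronal tubulin, had no count in these 8 libraries, and the part of such transcripts in the 5 results was not tested. Haemoglobin and other erythroid markers summed to 3.70 and 11.3 CPM in blue_3, 8.32 and 9.54 CPM in blue_14 and 5.15 and 44.0 CPM in dark_14, and the 12 fibroblast markers to 71.0 and 85.8 CPM in blue_3 and 80.6 and 93.0 CPM in blue_14.

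**Figure D5:**
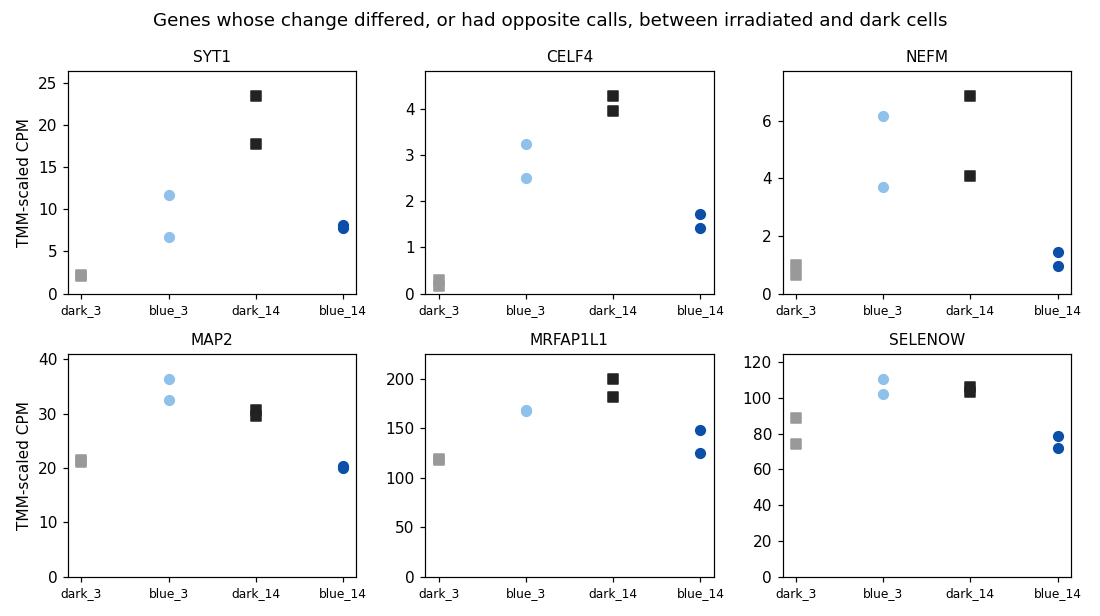
TMM-scaled CPM in each of the 8 libraries at 3 and 14 irradiations (vertical axes from 0) for the 5 genes whose irradiated and dark changes differed by test and for SELENOW, which was called in opposite directions; circles are irradiated and squares dark libraries. In each panel except SYT1 and CELF4 the blue_14 libraries lie at or near the level of dark_3, and blue_3 and dark_14 lie above.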

How the data were processed

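RNA-seq was made from total RNA of HaCaT cells with QuantSeq 3′ mRNA-Seq FWD kits, per the labels' protocols, which yield about 1 tag per transcript near its 3′ end. Raw read counts for each gene and each of the 12 libraries were deposited by the authors as whole numbers. STAR, featureCounts and GRCh38 are named in the submitters' processing notes, and neither versions nor annotation release and strand setting are given in the sources used here. Counts of antisense, overlapping or near-identical genes are therefore uncertain.

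Groups came from the sample titles. Of 45372 rows, 22754 had a count, and edgeR 4.0.16 (R 4.3.3) kept 12878 by filterByExpr (minimum count 10). After TMM scaling, 1 robust quasi-likelihood model with 6 group means (6 residual degrees of freedom, common biological coefficient of variation 9.41%) gave 3 two-sided contrasts: blue_14 minus blue_3, dark_14 minus dark_3 and their difference. P-values were adjusted by Benjamini-Hochberg within each contrast. The scripts were tested on simulated data. Within each group the libraries differed beyond counting noise (chi-square over degrees of freedom 1.64 to 8.58), so each counted as 1 replicate.

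Named genes were the 15 largest log2 differences in each direction among called genes at 10 CPM or more and groups that did not overlap, up to 4 members of each gene list by p, genes called in the difference and 14 further genes; results of 4 of these genes are not reported here. The comparison, the 40 pathway and 8 marker lists and these rules were chosen with earlier results of these data known. Of 1011 list symbols 3 did not match. Gene positions came from GENCODE 29. Alternatives were DESeq2 1.42.0, RLE scaling, other filters, other fits, thinning, the library letter as a block and leaving out each library.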

Additional observations from a re-analysis of the deposited data

Results flagged for a closer look

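Of all tested genes, 5 changed differently from 3 to 14 irradiations in irradiated than in dark cells by the edgeR test of the difference itself, given here as the irradiated minus the dark log2 change. CELF4, an RNA-binding protein of neurons, differed by -4.88 ± 0.78 (SE, adjusted p = 0.0211), at 2.52 and 3.24 CPM in blue_3, 1.72 and 1.43 CPM in blue_14, with dark libraries at 0.16 and 0.29 CPM for dark_3 and 4.30 and 3.96 CPM for dark_14. NEFM, the medium neurofilament protein, differed by -4.55 ± 0.80 (adjusted p = 0.0336), at 3.71 and 6.15, 1.44 and 0.95, 0.63 and 1.01, and 6.87 and 4.09 CPM in the same order. Both rest on few counts. SYT1 differed by -3.44 ± 0.44 (adjusted p = 0.00183), MAP2 by -1.27 ± 0.22 (adjusted p = 0.0336) and MRFAP1L1 by -0.99 ± 0.16 (adjusted p = 0.0211). SYT1, MAP2, CELF4 and NEFM are themselves among the neuronal markers, whose sum therefore moved in part with them. The part of neuronal transcripts in these differences was not tested.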

How the results depend on the processing

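Of the named genes, none of the 138 called in irradiated cells changed its sign under any of these alternatives, while 7 of the 28 not called did (SYT1, HMOX1, OPN3, MMP1, KRT5, KRT10 and KRT14), and RLE scaling left all 166 named genes and all 40 list medians as they were called. Of the 801 genes called in irradiated cells, the count was 1348 without a filter on low counts and 503 in a fit of the 4 irradiated libraries alone, and it ran from 110 to 1076 when 1 library was left out. The share of higher calls was 58.2%, against 47.3% without a filter and 70.6% in the 4-library fit. The 1638 dark calls became 2651 in a fit of the 4 dark libraries alone and 833 after thinning to the smallest library, and ran from 336 to 1987 with 1 library left out. The 5 calls of the difference became 15 by DESeq2, 3 with a filter at 5 CPM, 12 in a fit of the 8 libraries at 3 and 14 irradiations, 115 without a filter, 8 without robust estimation and 3 after thinning, and ran from 1 to 38 with 1 library left out. The 426 calls shared by both arms became 760 without a filter and 249 after thinning, and ran from 84 to 568 with 1 library left out. The causes of these moves were not tested. Fits that left out 1 library also reapplied the filter, and where a group was left with 1 library, that library was assumed to vary like the other groups.

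The letters did not pair the libraries: deviations of same-lettered libraries correlated between -0.442 and 0.405 over 15 pairs of groups. With the letter as a replicate block, 706 genes were called in irradiated cells, 1568 in dark cells, 375 in both and 6 in the difference. For blue_3 and blue_14 the correlation was -0.173, and a crossed pairing of their letters, added after the data were seen, gave 708 calls. Depth limits low genes in blue_14 b, where 3 counts equal 1.43 CPM.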
